A study of Mus musculus with 6 samples.

Results

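The 83 genes of cytosolic ribosomal proteins were followed through single cells of the mouse liver during the spread of colorectal cancer. They are the symbols among 31253 measured features that follow the Rps and Rpl number pattern, together with Rplp0, Rplp1, Rplp2 and Rpsa and less the Rps6k kinases. RNA was measured in 6 libraries, 2 from each of 3 groups: control livers (label ctrl), livers at the pre-metastatic niche stage and livers at the macro-metastatic niche stage of an orthotopic mouse model of colorectal cancer. The labels name the same cell line, CT26-GFP, a mouse colon carcinoma line that carries green fluorescent protein, for all 6 libraries, controls included. The sources used here do not state the strain, sex, age or number of mice. Whole livers were digested with collagenase II, freed of erythrocytes and dead cells, and captured on the BD Rhapsody system. Each transcript receives a barcode of its cell and a molecular tag of its own (unique molecular identifier, UMI), so that it is counted once whatever its length. The labels do not say whether replicates are different mice, and every p-value therefore rests on the spread among 2 libraries a group, part of which may be technical.

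The eukaryotic ribosome is built from a small and a large subunit, and each ribosomal protein takes 1 place in it, with the stalk proteins as an exception. Cells make these proteins in matched amounts. Their messenger RNAs are among the most abundant of the cell and begin with a 5′ terminal oligopyrimidine tract, which lets the growth kinase mTOR control their translation. A few members have paralogs of narrow expression, such as Rpl3l in striated muscle and Rpl10l and Rpl39l in male germ cells. The groups were compared to see whether the members moved together across cell types and which of them, such as Rpl8 and Rpl28, stood apart.

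Members that stood at the ends of the order described below differ in base composition, and the last 90 bases of the coding sequence of 5 of them, before the stop codon, are shown for that reason (GENCODE M21 transcripts of build GRCm38, coding strand 5′ to 3′, with every G and C in capitals). The first 2 were among the 3 members with the highest median change, and the last 3 had the lowest.
Rpl28: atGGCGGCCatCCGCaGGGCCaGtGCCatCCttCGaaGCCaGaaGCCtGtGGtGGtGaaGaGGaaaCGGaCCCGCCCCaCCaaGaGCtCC
Rplp2: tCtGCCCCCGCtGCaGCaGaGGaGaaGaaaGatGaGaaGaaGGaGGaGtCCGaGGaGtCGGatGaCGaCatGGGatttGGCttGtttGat
Rps27l: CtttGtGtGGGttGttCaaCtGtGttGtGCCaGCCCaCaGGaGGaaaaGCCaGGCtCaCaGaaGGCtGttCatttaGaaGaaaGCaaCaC
Rps15a: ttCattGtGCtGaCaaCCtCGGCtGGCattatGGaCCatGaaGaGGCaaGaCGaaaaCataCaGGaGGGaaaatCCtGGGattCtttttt
Rpl7: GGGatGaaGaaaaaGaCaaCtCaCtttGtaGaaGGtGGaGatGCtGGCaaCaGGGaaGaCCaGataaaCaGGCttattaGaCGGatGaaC
These windows lie at chr7:4794180-4794504 (Rpl28, plus strand, 2 exons), chr7:141451087-141451305 (Rplp2, plus, 2 exons), chr9:66947634-66949354 (Rps27l, plus, 2 exons), chr7:118109103-118109192 (Rps15a, minus, 1 exon) and chr1:16101731-16101820 (Rpl7, minus, 1 exon). G and C made up 64.4% and 53.3% of the first 2 windows and 48.9%, 44.4% and 44.4% of the last 3. Over the whole coding sequence the shares were 56.2% and 56.8% against 46.0%, 45.9% and 47.4%.

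Cells were assigned to a class where they held at least 3 of its markers and at least 2 times the marker share of every other class, which gave a class to 47010 of 66935 kept cells (70.23%), and class names stand for cells like that type. In 7 classes every library held at least 30 cells: neutrophils, monocytes and macrophages, Kupffer cells (macrophages that live in the liver sinusoids), endothelial cells, T cells, NK cells and B cells. The smallest were the 34 and 50 control monocytes and macrophages and the 47 NK cells of macro-metastatic replicate 1. Libraries held 41914149 to 51750676 UMIs in the control and pre-metastatic groups and 88986627 and 90819751 in the macro-metastatic group. The macro-metastatic libraries were thus the deepest, and median UMIs per cell were between 1.47 times (monocytes and macrophages) and 2.11 times (Kupffer cells) those of control. In the 6 classes other than neutrophils, the summed level of 12 neutrophil markers was higher in both macro-metastatic libraries than in both control libraries (766 and 1085 against 208 and 221 CPM, UMI counts scaled to a common total, in B cells), and that of 12 hepatocyte markers lower (91.6 and 116 against 493 and 917). The summed level of the Kupffer cell markers was likewise higher in both macro-metastatic libraries in B cells (495 and 506 against 86.4 and 94.0), T cells (404 and 519 against 69.5 and 85.0), NK cells (436 and 436.5 against 87.7 and 88.5), endothelial cells and monocytes and macrophages. Cholangiocyte markers were higher in NK cells (201.5 and 797 against 13.5 and 16.6), T cells, Kupffer cells, and monocytes and macrophages. That list shares Spp1 with the markers of monocytes and macrophages and Epcam with those of colon tumour cells. The tumour markers were not higher in NK cells (4.7 and 14.2 against 13.5 and 19.0). They were higher, at low levels, in B cells (25.7 and 29.7 against 16.3 and 22.5) and T cells (20.3 and 21.1 against 6.8 and 10.2). The same held for monocytes and macrophages (4.4 and 10.4 against 0.0 and 0.0). Stellate cell and fibroblast markers were higher in 5 classes at low levels (27.5 and 49.5 against 9.2 and 12.2 in B cells). In NK cells T cell markers (1382 and 1480 against 969 and 1087) and erythroid markers (377 and 840 against 243 and 282) were higher too. Of the other 11 lists, 10 were higher in 1 to 5 classes and 10 lower in 1 to 4. The classes' own markers were lower in B cells (10346 and 10519 against 13205 and 13516), NK cells (13863 and 14577 against 17340 and 19485), T cells, endothelial cells, and monocytes and macrophages, and higher in neutrophils (84062 and 87561 against 42985 and 56397). The part of these marker levels in the results was not tested.

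In 3 classes the gated cells of control and macro-metastatic livers lay mostly in different clusters of the same name, and changes within these classes compare those clusters. Of control neutrophils 87.9% and 95.5% were in cluster 14, which held 2.33% and 7.44% of the macro-metastatic ones, and of macro-metastatic neutrophils 91.5% and 89.5% were in cluster 35, which held 2 cells of each control library. Control Kupffer cells lay in cluster 4 (90.2% and 85.2%, against 20.5% and 22.4%) and macro-metastatic ones in cluster 19 (67.7% and 63.5%, against 1.31% and 3.17%). Of control endothelial cells 75.9% and 61.5% were in cluster 2, while 53.7% and 92.6% of the macro-metastatic ones were in cluster 36, which held 1 cell of each control library. B cells lay in 1 cluster in each library (98.8% or more), and the cluster with the most control cells also held most macro-metastatic cells among T cells, NK cells, and monocytes and macrophages. Other clusters of these classes shifted in share, and their part in the changes was not tested. Cluster 11 held 26.6% and 26% of macro-metastatic T cells against 10.4% and 2.61% in control. For cluster 6 it was 12.7% and 12.2% against 25.6% and 33.2%. Cluster 16 held 11.9% and 11.2% of monocytes and macrophages against 2.94% and 2%. Of NK cells, cluster 18 (leading genes Top2a and Mki67) held 12.8% and 2.78% against 2.01% and 2.44%. Any pair of libraries shared 126 to 222 cell barcodes.

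The ribosomal protein genes took a larger share of all UMIs in both macro-metastatic libraries than in any other library, in each of the 7 gated classes. T cells had the highest share in control, 11.5% and 10.9%, against 9.75% and 10.1% at the pre-metastatic and 13.4% and 14.2% at the macro-metastatic stage. Among NK cells, where the gap was widest, it was 6.11% and 5.88%, then 5.02% and 6.26%, then 11.9% and 9.53%. Neutrophils had 1.30% and 1.34%, then 1.42% and 1.16%, then 2.08% and 2.00%. Neutrophils thus lay far below the lymphocytes in each group, and the order of classes by their mean share in control (T, B, monocytes and macrophages, NK, endothelial, Kupffer, neutrophils) was broken in the macro-metastatic group by NK cells, which moved above monocytes and macrophages. The ratio of the macro-metastatic to the control mean ran from 1.21 (monocytes and macrophages) to 1.79 (NK cells), with a median of 1.36 over the 7 classes. These shares are given without a test: an exact permutation test of a single value over 2 libraries a group cannot give a p below 0.3333. With cells taken by cluster in place of gate, the ratio in neutrophils turned to 0.847, while it was 1.08 in T and 1.11 in Kupffer cells and 1.37 to 1.63 in the other 4 classes. Rpl8 and Rpl28 carried little of the difference: without them the median ratio was 1.34.

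**Figure D1:**
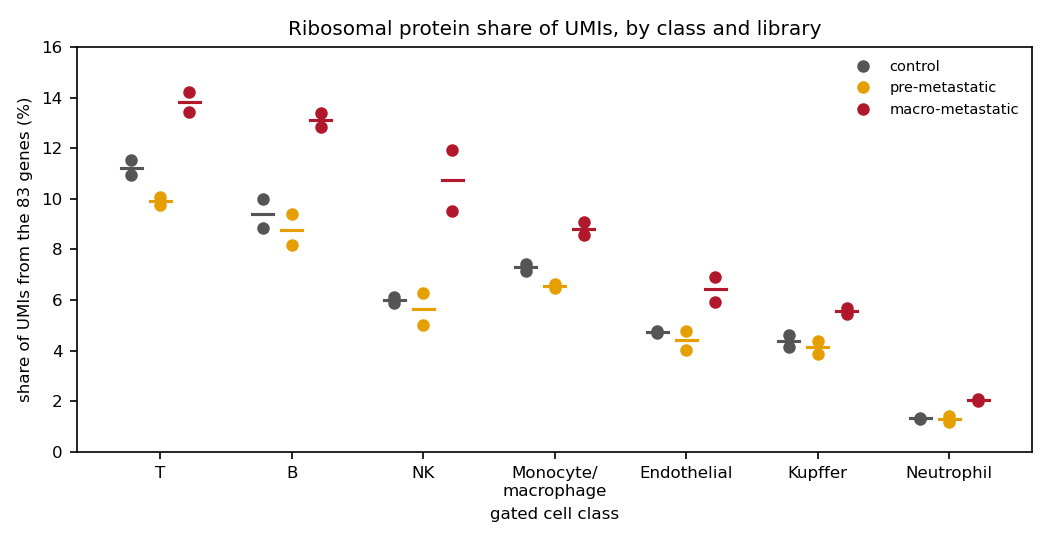
Share of UMIs from the 83 genes (vertical axis, percent) in 7 gated classes (horizontal axis), with 1 point per library and a bar at the mean of each group. In each class both macro-metastatic points (red) lie above the control (grey) and pre-metastatic (orange) points, from 2.00% in neutrophils to 14.2% in T cells.

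Between macro-metastatic and control livers, 280 of 563 tested pairs of a member and a class rose and 0 fell (edgeR's quasi-likelihood test, adjusted p under 0.05, 6 libraries). Over all genes and classes the same call was made for 10.4% of 64567 pairs upward and 5.73% downward. Of the 83 members, 79 passed the filter on low counts in every class, Rpl36, Rpl39l and Rpl3l in some, and Rpl10l, without a UMI in any library, in none. In NK cells 65 of 80 members rose, where 7.52% of all tested genes did. In B cells it was 47 of 80 (all genes 10.4%), in endothelial cells 45 of 81 (15.1%), in Kupffer cells 37 of 81 (9.55%) and in T cells 34 of 81 (13.8%). In monocytes and macrophages 28 of 80 rose (all genes 6.75%) and in neutrophils 24 of 80 (5.17%). Both macro-metastatic libraries lay above both control libraries for 76 members in NK cells (25.7% of all genes there), 75 in endothelial cells (32.6% of genes), 71 in neutrophils (32.5% of genes) and 68 in B cells (28.9% of genes). The count was 65 in Kupffer cells (31.0% of genes), 57 among monocytes and macrophages (30.5% of genes) and 56 for T cells (31.4% of genes). The median log2 fold change of the members lay between 0.37 (T cells) and 1.00 (NK cells), and that of all genes between −0.02 and 0.10. With cells taken by cluster it was 0.148 in neutrophils (0.782 by gate), where 14 members rose, 0.169 in T cells (0.367 by gate) and 0.299 in Kupffer cells (0.542 by gate). Without control replicate 1 the pairs that rose numbered 169 and without control replicate 2 163. The members that rose then numbered 40 and 37 in NK cells, 16 and 19 in endothelial cells, 17 and 16 in Kupffer cells, 14 and 19 among monocytes and macrophages and 3 and 2 in neutrophils, while they were 44 and 36 in B cells and 35 and 34 in T cells. When libraries were scaled to their own ribosomal protein total, which asks how members changed relative to each other, 133 pairs rose and 47 fell.

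The 83 genes did not move as a block. Of the 79 members tested in every class, 18 rose in each class (1.78% of all genes tested in every class did), 30 in 2 to 6 classes, 17 in 1 class and 14 in none (72.4% of all such genes). The 18 rest on both control libraries: without control replicate 1 the members that rose in each class numbered 2, and without control replicate 2 also 2, with Rpl28 in both sets and Rpl8 in neither. With the ribosomal protein total they numbered 7, and 12 after thinning to the shallowest library, with the GC offset on the last bases or without macro-metastatic replicate 1. Of the 17 that rose in 1 class, 16 did so in NK cells. Of all genes tested in every class, 10.9% rose in 1 class and 0.727% in NK cells and no other class. A rise in NK cells alone is no test of a difference between classes, and in the joint fit against B cells, described below, 0 members were called in NK cells. Median changes over the 7 classes formed a graded series from −0.20 (Rps27l) to 4.17 (Rpl28): 11 members exceeded 2 on the log2 scale, 22 exceeded 1, and 18 lay within 0.25 of zero. Both subunits were spread along the series. The median was 0.54 for 32 small subunit members and 0.57 for 47 large subunit members, and 10 small and 8 large subunit members rose in every class.

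**Figure D2:**
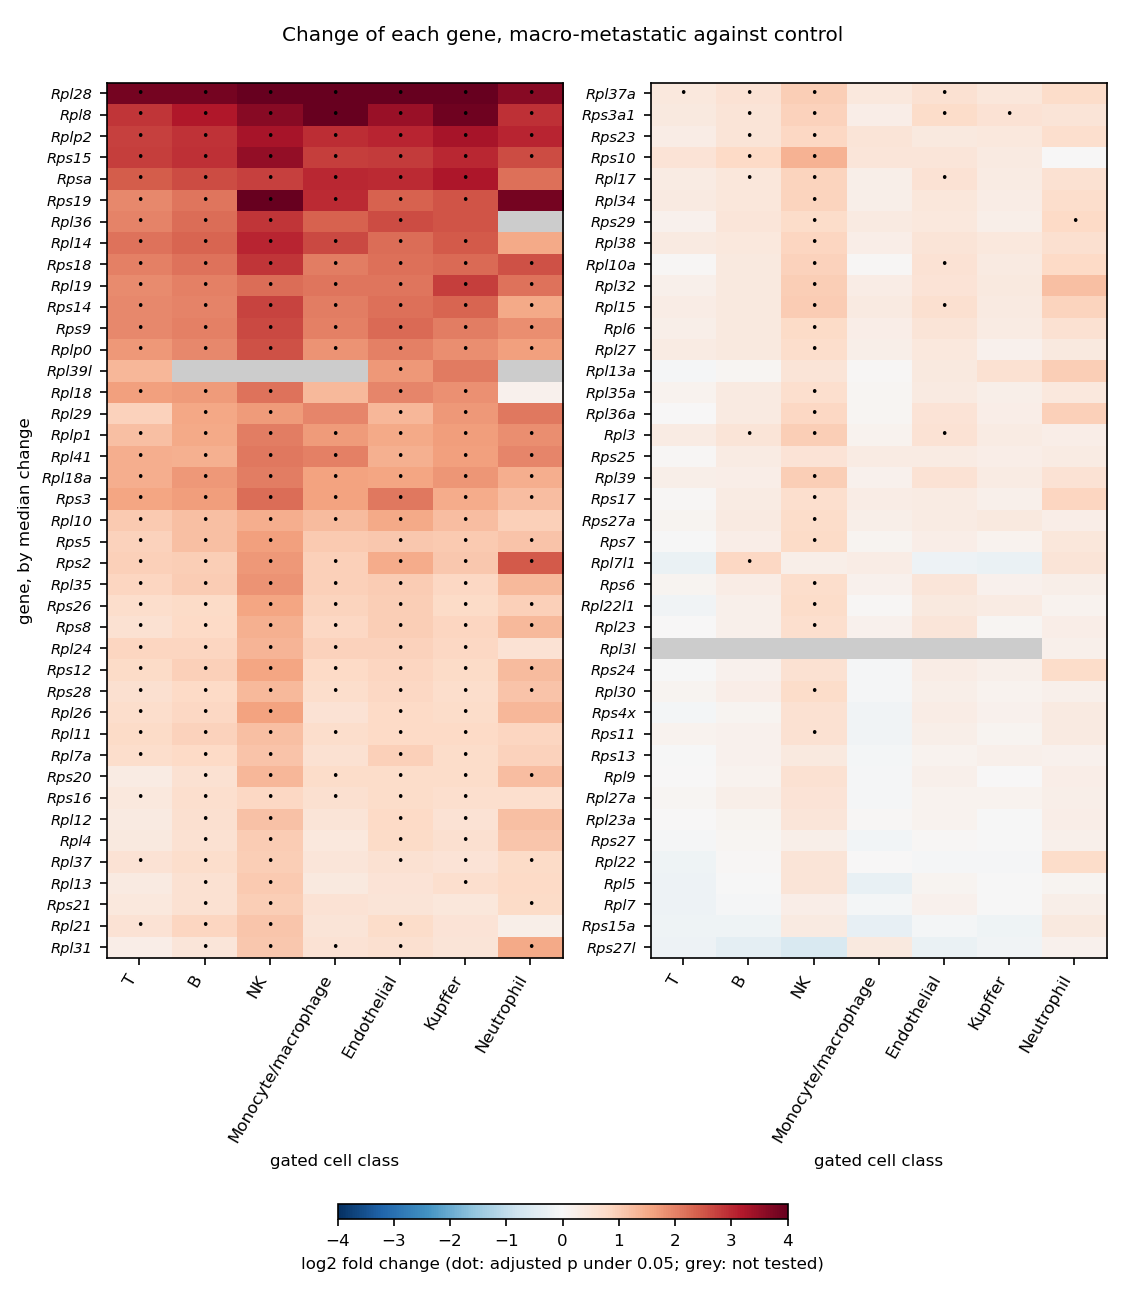
Log2 fold change between macro-metastatic and control libraries for the 82 tested members (rows, ordered by their median and continued from the left to the right panel) in 7 classes (columns); a dot marks an adjusted p under 0.05 and grey a gene that was not tested, and the colour scale ends at 4. Rows keep a like colour across columns, from 4.17 for Rpl28 at the top left to −0.20 for Rps27l at the bottom right.

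Rpl28, a large subunit protein, had the largest median change of the members. In B cells its level was 55.8 and 71.3 CPM in the control libraries, 42.1 and 75.9 CPM in the pre-metastatic ones, and 807 and 998 CPM in the macro-metastatic ones (log2 fold change 3.82, SE 0.23, adjusted p = 5.4e-10, edgeR's quasi-likelihood test). In Kupffer cells the 6 values were 26.5 and 32.1, 30.9 and 27.6, and 560.2 and 505 CPM. The macro-metastatic values stood apart from both other groups, which overlapped. In NK cells the control libraries held 14.5 and 34.1, the pre-metastatic libraries 23.5 and 39.95 and the macro-metastatic libraries 1115 and 739.6 CPM, a log2 fold change of 5.12 (SE 0.33). Neutrophils of control replicate 1 held no Rpl28 UMI in 141462 UMIs, which allows up to 21.2 CPM, those of control replicate 2 21.4 CPM, and the macro-metastatic libraries 182 and 159.7 CPM. Rpl28 rose in all 7 classes, with adjusted p of at most 0.0044, and did so under each alternative run.

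Rpl8, the large subunit protein that lies near the peptidyl transferase centre, where peptide bonds form, was second. Its level in T cells was 65.5 and 101 CPM in the control livers, 64.98 and 94.1 CPM in the pre-metastatic livers, and 636 and 577 in macro-metastatic libraries (log2 fold change 2.87, SE 0.23, adjusted p = 1.6e-05, edgeR's quasi-likelihood test). Endothelial cells held 28.2 and 43.6, then 23.2 and 36.2, then 431 and 352 CPM. In both classes the control and pre-metastatic values overlapped and the macro-metastatic values lay several-fold above. In monocytes and macrophages control replicate 1 had no UMI in 146487, which allows up to 20.5 CPM, control replicate 2 31.5 CPM and the macro-metastatic libraries 548 and 389.7 CPM. Rpl8 rose in 7 classes, by 2.87 to 4.73 on the log2 scale. Without control replicate 1, or without control replicate 2, it rose in 6 classes. Thinned to the shallowest library, it was tested in 6 classes and rose in each of these 6.

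**Figure D3:**
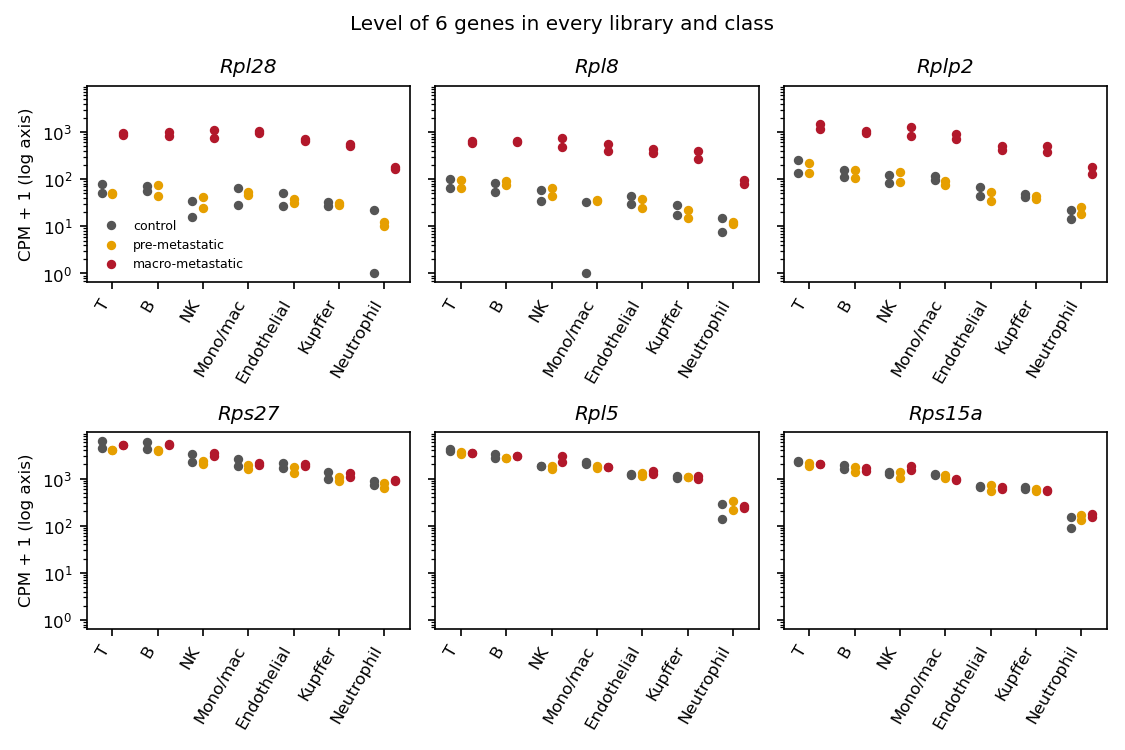
Level (CPM + 1, log axis) of 6 members in every library, by class; grey is control, orange pre-metastatic and red macro-metastatic. In the top row (Rpl28, Rpl8, Rplp2) the red points lie above the others in each class, as with 807 and 998 CPM of Rpl28 in B cells, while in the bottom row (Rps27, Rpl5, Rps15a) the 3 colours lie close together.

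The stalk of the large subunit, which recruits the elongation factors that drive translation, is made of Rplp0 and of paired copies of Rplp1 and Rplp2. All 3 genes rose in each of the 7 classes, and by different amounts. Rplp2 had the largest median change (3.03, range 2.75 to 3.30): in B cells it went from 111 and 158 CPM in control and 103 and 155 in pre-metastatic libraries to 1056 and 970.5 in macro-metastatic libraries. Rplp0 had a median change of 1.84 and Rplp1 of 1.66. Rplp1 differed between the macro-metastatic libraries, with 879 and 589 CPM in B cells against 179 and 321 in control, and rose in 3 classes without control replicate 1 and in 4 without macro-metastatic replicate 1. With a GC offset on the last transcript bases, described below, its median change was 0.98 and it rose in 4 classes.

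Among small subunit proteins the series was led by Rps15 (median change 2.78), Rpsa, which is also known as the laminin receptor precursor (2.74), Rps19, the gene most often mutated in Diamond-Blackfan anaemia (2.52), and Rps18 (2.21). Rps15 in Kupffer cells held 33.6 and 40.3 CPM in control, 21.6 and 36.2 at the pre-metastatic stage, and 314 and 288 at the macro-metastatic stage. Rps19 was uneven within the macro-metastatic group: B cells held 533 CPM in replicate 1 and 139 in replicate 2, against 68.4 and 75.3 in control and 31.9 and 87.7 in pre-metastatic libraries. Its median change without macro-metastatic replicate 1 was 1.35, and it rose in 2 classes without control replicate 1 and in 3 without control replicate 2, against 6 with all libraries. Rpsa (864 and 450.5 CPM in B cells) and the large subunit gene Rpl14 (436 and 292) were likewise higher in replicate 1, and both rose in 6 classes. The reading of Rps18 is uncertain, since 89.2% of the 31-base words in the last 500 bases of its transcript also occur in other measured features; for Rplp2 the share was 43.4%.

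At the other end, 11 members lay within 0.20 of zero by their median and rose or fell in no class. The 8 lowest were Rps27l, Rps15a, Rpl7, Rpl5, Rpl22, Rps27, Rpl23a and Rpl27a, followed by Rpl9, Rps13 and Rps4x. Rpl5, which with Rpl11 carries the 5S ribosomal RNA and can hold back the p53 inhibitor Mdm2, had 3390 and 2723 CPM in B cells of control, 2738 and 2776 at the pre-metastatic stage, and 3058 and 2971 at the macro-metastatic stage (log2 fold change −0.02, SE 0.16). Rps27 held 5853 and 4159, then 3898 and 4093, then 5463 and 5189 CPM in the same cells: the macro-metastatic values lay within the control range and the pre-metastatic values just below it. Rps27 is read with the same uncertainty as Rps18, since 98.7% of its words occur in other measured features, as do 93.4% of those of Rpl9. Rps15a, a small subunit protein, held 1888 and 1602 CPM in control and 1465 and 1639 CPM in macro-metastatic B cells, where the groups overlapped (−0.17, SE 0.17, adjusted p = 0.55, edgeR's quasi-likelihood test). The direction of the lower series depends on the scale: relative to the ribosomal protein total, Rps15a fell in 6 classes, Rpl5 and Rps27 in 5, Rpl7, Rpl22, Rps13 and Rps27l in 4, Rps4x in 3, and Rpl9, Rpl23a and Rpl27a in 1. Rpl11 itself had a median change of 0.805 and rose in 6 classes.

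Most members with large changes started from low levels in the control and pre-metastatic libraries, with Rps9 and Rps14 as exceptions. Some members of low level changed little. Rpl7l1 had medians over classes of 43.5 and 35.5 CPM in control (median change 0.24) and Rps27l 102.8 and 59.2 CPM (−0.20). In B cells Rpl8 stood at 4.47% and 7.78% of the median member in control, 8.38% and 8.02% at the pre-metastatic and 38.0% and 39.4% at the macro-metastatic stage, and Rpl28 at 4.65% and 6.71%, 4.84% and 6.78%, and 49.3% and 60.8%. The spread of the 79 members' levels was accordingly narrower in the macro-metastatic libraries: the SD of log2 CPM over members in B cells was 1.98 and 1.77 in control, 1.92 and 1.76 at the pre-metastatic stage, and 1.40 and 1.501 at the macro-metastatic stage. Macro-metastatic values were below those of the other 4 libraries in each of the 7 classes. Across the 79 members the median change had a Spearman rho of −0.65 with the level in the pre-metastatic libraries, which do not enter the change but share chemistry and transcripts with the libraries that do. Members are not independent samples, so this describes these libraries.

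The change also followed the GC content of the coding sequence (Spearman rho 0.73 across the same 79 members, given as a description). The 26 members with the highest GC (54.6% to 59.5%) had a median change of 1.68, the middle 26 (50.6% to 54.4%) 0.50 and the 27 with the lowest (39.9% to 50.6%) 0.28. Of the 18 members that rose in each class, 14 were among those 26 of highest GC, 4 among the middle 26 and 0 among the 27 of lowest GC, a split of a set that shrank to 2 members without either control library. Exceptions stood among the GC-rich members: Rps29, with the highest coding GC of the 79 members (59.5%), had a median change of 0.44 and rose in 2 classes, and Rpl13a (55.8%) rose in no class. Genes that are not members moved less over the same GC ranges: their median changes were 0.18 for 1124 genes of the high range and −0.08 for 2563 of the low range. Spearman's coefficient was 0.49 for the GC of the last 500 transcript bases, 0.115 for coding length, 0.015 for the share of 31-base words of those bases found in another gene and −0.07 for the number of annotated pseudogenes that share them. With an offset smoothed on coding GC over all genes of each library, 263 pairs rose and 0 fell, and the median changes of Rpl28 and Rpl8 were 3.94 and 3.23. With the last 500 bases they were 4.12 and 2.92, and 223 pairs rose. Depth moved with the group as well. After thinning the summed counts of each class to its shallowest library, 261 of 538 pairs rose, with 4.22 for Rpl28 and 3.63 for Rpl8. Such thinning evens library totals and leaves the expected share of each gene unchanged. It cannot tell whether depth per cell plays a part, which was not tested. Between pre-metastatic and control livers, coding GC and the members' change had a rho of 0.15.

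**Figure D4:**
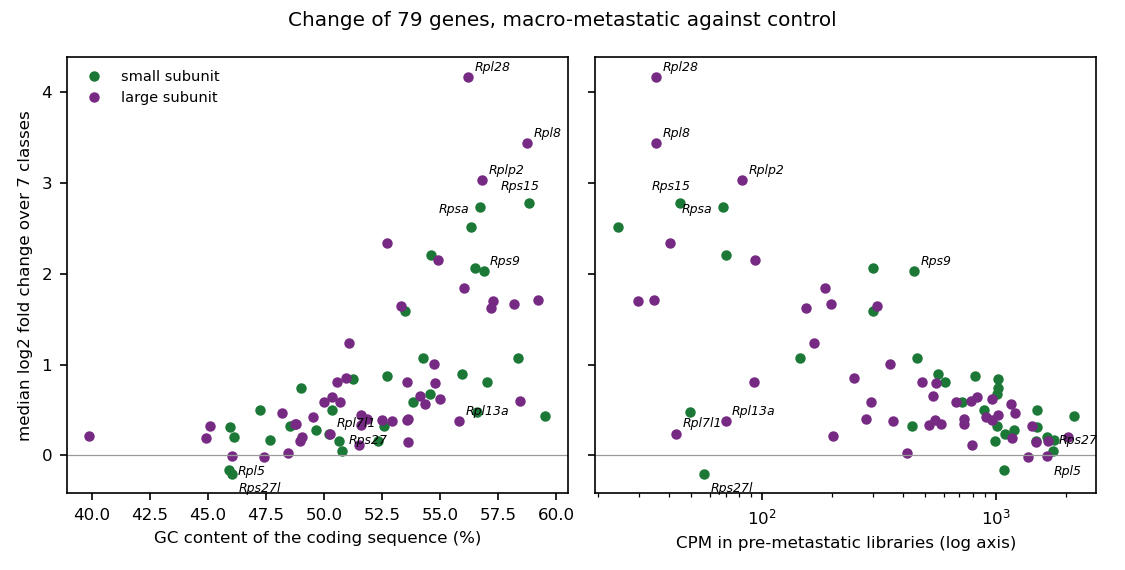
Median log2 fold change over 7 classes (vertical axis) of the 79 members tested in every class, against the GC content of their coding sequence (left, percent) and their mean level in the pre-metastatic libraries (right, CPM, log axis); green is the small and purple the large subunit. Changes over 2 lie at a coding GC of 52.7% or more and, but for Rps9 and Rps14, at levels near or under 100 CPM, with Rpl28 (4.17) highest.

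Whether members changed by a different amount in 1 class than in another was tested in a joint fit against B cells, with the library as a block. Of 480 differences, 1 was called (1.45% over all genes and classes): Rpl7l1, a paralog of Rpl7 that works in the nucleolus, changed by 1.02 less on the log2 scale in endothelial than in B cells (−1.02, SE 0.28, adjusted p = 0.037, edgeR's quasi-likelihood test), where 3.33% of all 11617 genes were called. The difference kept its direction but was called under none of the 9 alternatives of this fit (−0.78 to −1.29, adjusted p 0.059 to 0.32). It was at 37.9 and 39.7 CPM in control and 77.8 and 64.4 in macro-metastatic B cells, and at 47.6 and 45.6, then 37.0 and 44.6 in endothelial cells. Rpl7l1 itself rose in B cells (0.84, SE 0.24, adjusted p = 0.020) and in no other class, and it rose in no class with DESeq2, when thinned, with the ribosomal protein total, with the GC offset on the last bases, or without control replicate 1, control replicate 2 or macro-metastatic replicate 1. For Rpl28 the differences from B cells ran from −0.10 (SE 0.70) in neutrophils to 1.37 (SE 0.40) in NK cells, and for Rpl8 from −0.37 (SE 0.25) in T cells to 1.53 (SE 0.51) in monocytes and macrophages, none called (adjusted p 0.19 to 1.00, edgeR's quasi-likelihood test). NK cells stood apart in the count before adjustment: 78 of 80 members changed by more than in B cells (median 0.45), and 37 had an unadjusted p under 0.05, 46.2% against 7.83% of all genes, with 0 called after adjustment (0.129% of all genes). No member was called in neutrophils (all genes 2.4%), monocytes and macrophages (0.775%), Kupffer cells (1.33%) or T cells (0.74%). With 1 scaling over all classes, chosen after seeing the data, 27 differences were called (2.57% over all genes and classes), 26 of them larger changes in neutrophils, where 8.03% of all genes were called, and 1 in Kupffer cells (1.89%).

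At the pre-metastatic stage 1 pair of a member and a class was called. Of 563 pairs between pre-metastatic and control livers 0 rose and 1 fell (edgeR's quasi-likelihood test; 25 had an unadjusted p under 0.05, and with DESeq2 0 rose and 5 fell). Over all genes 0.11% of pairs rose and 0.0155% fell. The pair was Rps18 in B cells, at 162 and 239 CPM in control and 73.0 and 112 in pre-metastatic libraries (log2 fold change −1.12, SE 0.23, adjusted p = 0.037, where 0.06% of all genes in B cells fell), against 827 and 976 in macro-metastatic libraries. This call was lost with the ribosomal protein total (adjusted p = 0.20), with clusters (0.064), when thinned (0.12) and without control replicate 1 (0.059), control replicate 2 (0.40) or pre-metastatic replicate 1 (0.69), and it carries the uncertainty of the shared words of Rps18 given above. Rps18 had the lowest change of the members in 6 of the 7 classes in this comparison, −1.21 in monocytes and macrophages among them, without a call elsewhere. The members' median change was between −0.16 in T cells and 0.08 in neutrophils.

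Macro-metastatic against pre-metastatic livers rests on the same macro-metastatic libraries: 324 of 563 pairs rose and 0 fell, where 9.51% of all pairs rose and 4.44% fell. NK cells again had the most (70 of 80, all genes 7.01%), followed by B cells (56 of 80, 8.03%), T cells (49 of 81, 10.3%), endothelial cells (43 of 81, 9.69%), Kupffer cells (41 of 81, 13.6%), monocytes and macrophages (41 of 80, 10.1%) and neutrophils (24 of 80, 5.72%). Rpl28 had the highest change in 6 classes (3.94 in B to 4.86 in NK cells) and Rpl8 in Kupffer cells (4.23). Without pre-metastatic replicate 1 the pairs that rose numbered 176. Scaled to the ribosomal protein total, 142 rose and 66 fell.

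The paralogs had unlike levels in different classes. Rps27l, a paralog of Rps27 and a known target of p53, was at 359.6 to 487 CPM in hepatocytes, 77.8 to 120.4 CPM in endothelial cells, 36.7 to 70.5 CPM in B cells and 14.7 to 35.4 CPM in neutrophils over the libraries with at least 30 such cells. Rpl22l1, the paralog of Rpl22, was higher in lymphocytes than in hepatocytes: 414 to 558 CPM in T and 359.9 to 527 CPM in B cells against 134 to 195 in hepatocytes. In neutrophils it was at 33.2 to 77.8 CPM, so that both paralogs were low there. T and B cells overlapped in Rpl22l1, and both lay above endothelial and Kupffer cells. Rpl22l1 rose in NK cells (adjusted p = 0.046, edgeR's quasi-likelihood test), a call that was lost with DESeq2, without the filter, when thinned, with the ribosomal protein total, with the replicate block and in each fit without a library but that without macro-metastatic replicate 2. Rpl3l had 310 UMIs in all, 129 of them in neutrophils (2.48 to 7.64 CPM), and its highest value, 12.3 CPM, in plasmacytoid dendritic cells. Rpl39l, the paralog of the X-linked Rpl39, rose in endothelial cells, from 1.04 and 0.94 CPM in control to 3.42 and 3.18 CPM (log2 fold change 1.73, SE 0.40, adjusted p = 0.019), on 138 UMIs in 6 libraries, and this call was lost when thinned, with the ribosomal protein total and without either control library. Rpl10l had 0 UMIs in each library, which allows up to 0.033 to 0.0716 CPM by library.

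Other genes of translation were read from 6 lists beside the members (numbers are pairs of gene and class, macro-metastatic against control, edgeR's quasi-likelihood test, against 10.4% up and 5.73% down over all genes). Of 161 pairs of 23 elongation factor and other terminal oligopyrimidine genes, 49 rose and 0 fell (median 0.32). Eef2, the factor that moves the ribosome along the message, and Fau, which encodes a ubiquitin-like protein fused to the small subunit protein eS30, rose in all 7 classes, with median changes of 2.99 and 2.31. Eef2 held 121 and 156 CPM in control B cells, 135 and 159 at the pre-metastatic and 1163 and 519 at the macro-metastatic stage, and Fau 83.2 and 109, 74.0 and 125, and 605 and 235. Both were thus higher in macro-metastatic replicate 1 than in replicate 2.

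Of 181 pairs of 26 initiation factors 43 rose and 3 fell. Eif3d, a subunit of the scaffold that brings the small subunit to the message, led with a median of 2.49 and rose in 6 classes. In B cells Eif3d held 16.8 and 6.48 CPM in control, 12.3 and 19.2 at the pre-metastatic and 77.8 and 82.99 at the macro-metastatic stage. Eif3k (1.42) and Eif5a (1.35) had the next highest medians. The 3 falls were all of Eif4a2, a helicase, in Kupffer cells, monocytes and macrophages, and neutrophils. Of 223 pairs of 37 ribosome biogenesis genes 46 rose and 4 fell, led by Rrp9 (2.00), Mybbp1a (1.51) and Nop2 (1.47). Nop10, a part of the small nucleolar particles that modify ribosomal RNA, fell in 2 classes. Dkc1, the pseudouridine synthase of the same particles, fell in T cells (−0.93). Of the proteins that share a particle with Dkc1 and Nop10, Nhp2 rose in 4 of the 6 classes that tested it (median 1.33). Gar1 rose or fell in no class (0.29). Myc, a transcription factor that drives ribosome production, was higher in macro-metastatic endothelial cells (562 and 727 CPM against 19.5 and 12.7 in control, log2 fold change 5.33, SE 0.36, adjusted p = 2.1e-04) and lower in Kupffer cells (109 and 82.7 against 177 and 169, −0.85). In the other 5 classes it was not called, with changes of −0.27 to 1.28.

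Of the mitochondrial ribosomal proteins, which build the separate ribosome of mitochondria, 27 of 437 pairs of 78 genes rose and 1 fell (median 0.147). The share of rises was below that of all genes. Class medians ran from −0.007 (endothelial cells) to 0.434 (neutrophils), against −0.016 to 0.095 for all genes. Mrpl54 (2.26), Mrps18a (1.92) and Mrpl4 (1.76) had the largest medians, and Mrpl50 fell in endothelial cells (−0.73). Of 8 pseudogene features of ribosomal proteins 5 were tested, and 9 of 20 pairs rose, with Rps18-ps6 in 5 classes (11.6 and 13.8 CPM in control and 93.4 and 71.1 in macro-metastatic B cells). Their reads cannot be told apart from those of the parent gene where the sequence is shared. Of 3 snoRNA host transcripts, Epb41l4aos and Snhg12 rose in 3 classes each. In none of the 6 lists did a pair rise or fall between pre-metastatic and control livers.

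**Figure D5:**
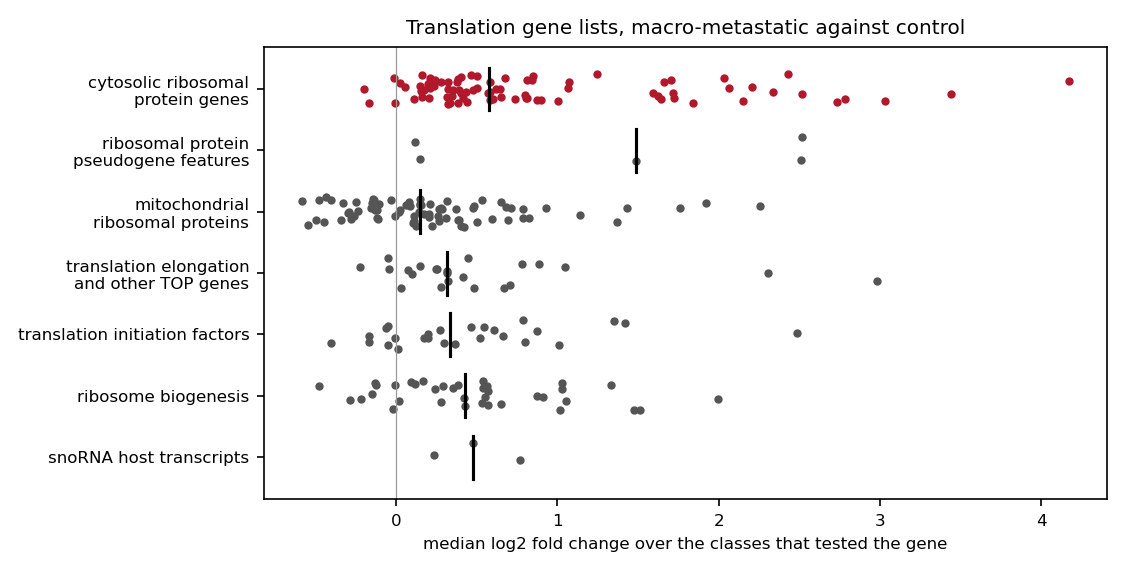
Median log2 fold change over the tested classes, macro-metastatic against control (horizontal axis), with 1 point per gene and a black bar at the median of each list. The cytosolic ribosomal protein genes (red) reach from −0.20 to 4.17, and in the lists of elongation and initiation factors a few genes, such as Eef2 at 2.99, lie apart from the rest.

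RefSeq promoters (250 bases before to 50 after the start, GRCm38.p6) were found for 63 members. The letters CTTTCC, a pyrimidine-rich word of the kind that starts terminal oligopyrimidine messages, occurred on either strand in 33 of them (52.4%) and in 29.3% of the 27025 genes with a promoter. The word was in 6 of 13 members that rose in every class and had a promoter. It was in 7 of 14 with a promoter that rose in none, a set that also admitted members not tested in every class.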

How the data were processed

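Deposited files hold, for every barcode, whole UMI counts by gene, without normalisation by the authors. The submitters' processing notes name CASAVA 1.8, UMI-tools and mouse build mm10, and neither aligner, annotation nor use of strand is stated in the sources used here. The fewest UMIs of a barcode were 500. Kept were barcodes in which 300 genes or more were detected and mitochondrial UMIs made up less than 25%. UMI sums per library and gated class went into the quasi-likelihood test of edgeR (version 4.0.16 under R 4.3.3, with filterByExpr, TMM scaling, 3 groups, 3 residual degrees of freedom), with Benjamini-Hochberg adjustment over all genes of a class. CPM are on the TMM-scaled totals of each class, except shares of UMIs, marker sums and paralog ranges, which use plain totals. The joint fit used the library sizes of the class fits. SE of the edgeR fits were derived as the absolute log2 fold change divided by the square root of the test's F statistic. Doublets were predicted at an expected 6% and kept, and their removal was an alternative, as were DESeq2 1.42.0, no filter, thinning and 38 Leiden clusters (scanpy 1.11.5, without predicted doublets). A fit without a library leaves 1 sample in that group, assumed to vary like the others. The gates put 66.01% of T cells to 99.06% of B cells in clusters of the same name. GENCODE M21 transcripts were found for all 83 members and 31107 of 31253 features. The scripts were tested on simulated data. In counts simulated for B and Kupffer cells, a log2 change of 1 was recovered for 28.8% and 18.6% of 200 changed genes. A change of 2 was recovered for 99% and 88.5%. The 200 genes were drawn at random from all genes that passed the filter, with 1 fixed dispersion for every gene. The rates are therefore not rates for the members, whose recovery was not simulated. A member without a call may still have changed.

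Members and lists were chosen with earlier results of these data known. Named are Rpl8, Rpl28, the 8 members with the highest and the 8 with the lowest median change, the paralogs, the stalk genes, members called before metastasis or against B cells, and up to 3 rising and 3 falling genes per list. Rps4x, Rps9, Rps13, Rps14, Rps29, Rpl9, Rpl11, Rpl13a, Nhp2 and Gar1 were named after their values were seen. Limits for counts of 0 are 3 counts and cover counting error only. 1 sequence among the members of highest change and 1 gene of a list are not reported here.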

Additional observations from a re-analysis of the deposited data

Results flagged for a closer look

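Rpl7l1 changed less in endothelial than in B cells between control and macro-metastatic livers, by −1.02 on the log2 scale (edgeR's quasi-likelihood test of the difference, adjusted p = 0.037). The values behind it are a rise in B cells and no call in endothelial cells, and the difference is called under none of the 9 alternatives run (adjusted p 0.059 to 0.32).

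Rpl39l stood out in cells that no gate took and that no comparison used: 64.7 CPM in macro-metastatic replicate 2, against 2.13 to 3.16 CPM in the other 5 libraries, controls included.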

How the results depend on the processing

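The pairs that rose between macro-metastatic and control livers stayed within 1.5 times of 280 under DESeq2, no filter on low counts, clusters, doublet removal, thinning, the GC offsets and the replicate block, and those against pre-metastatic livers within 1.5 times of 324. With the ribosomal protein total as library size, 133 pairs rose and 47 fell against control, and 142 rose and 66 fell against pre-metastatic livers. With clusters 1 pair fell against control. With the GC offset on the last bases 1 pair fell against control and 1 against pre-metastatic livers, and the same counts (1 and 1) came with that offset and the replicate block. Leaving out 1 library gave 163 to 287 rises against control and 176 to 309 against pre-metastatic livers, with 0 falls each. Before metastasis, 5 pairs fell with DESeq2, 9 without the filter, and 0 with the ribosomal protein total or with clusters, and 0 to 1 without 1 library; no setting gave a rise. Differences from B cells were called for 3 pairs without the filter, 0 with clusters, 27 with 1 TMM scaling over all classes and 0 to 4 without 1 library. The ratio of shares was 1.27 to 1.36 without 1 library. The cause of these differences was not tested.

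Whether replicate numbers pair the samples is not stated in the labels. Deviations from group means correlated by −0.10 to 0.35 over 21 pairs of groups and classes, 3 of them over 0.1. These correlations over all genes cannot exclude a pairing. With the replicate block 278 pairs rose against control, 322 against pre-metastatic livers, and 1 fell before metastasis. With the ribosomal protein total, 36 of the 78 members with a positive median change turned negative, among them Rps27 (−0.56), Rpl3l (−0.55), Rpl22 (−0.48), Rpl23a (−0.47) and Rpl27a (−0.42), which rose in no class. Of named members that rose in a class, Rpl22l1 changed sign with the ribosomal protein total (−0.31) and without control replicate 2 (range without 1 library −0.002 to 0.462), and Rpl7l1 with the ribosomal protein total (−0.62), clusters (−0.085), thinning (−0.21), the GC offset on the last bases (−0.083, or −0.121 with the replicate block) and without control replicate 2 (range without 1 library −0.222 to 0.408). The GC offset on coding sequence and the single TMM scaling were chosen after seeing the data. The depth of the control libraries limits the smallest classes, where Rpl28, Rps19 or Rpl8 had no UMI in control replicate 1.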

Other observations

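The Rpl39l counts of macro-metastatic replicate 2 came mostly from 1 small cluster that was left unnamed. It held 141 cells, 140 of them in that library, with Il1rl1, Rpl39l, Rhox5, Baiap2l1, Spp1, Dok6 and the intestinal keratin Krt20 among its leading genes. Rpl39l is thus a gene that defines the cluster, and its level there is given as a description, chosen after its values were seen. The 140 cells held 2403 Rpl39l UMIs, or 624 CPM, and 136 of them (97.1%) had at least 1, at a median depth of 29308.5 UMIs per cell. In the same library, another unnamed cluster of 885 cells with a median of 691 UMIs per cell held an Rpl39l UMI in 109 cells (12.3%), at 143 CPM, while in macro-metastatic replicate 1 it was 3 of 594 cells (0.505%, median 721 UMIs) of that cluster. For comparison, in macro-metastatic replicate 2 an Rpl39l UMI was found in 5 of 524 cells (0.954%, median 2257 UMIs) of the B cell cluster. In the gated Kupffer cells of all libraries Rpl39l ranged from 0 to 9.3 CPM.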
